A study of Mus musculus with 18 samples.

Results

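The genes described here are the Wnt ligands, their Frizzled receptors and 3 groups of secreted modulators, the secreted Frizzled-related proteins, the Dickkopf proteins and the R-spondins. They were taken from the count table by their gene symbols, which gave 41 of 54347 rows: 19 Wnt, 10 Fzd, 4 Sfrp, 4 Dkk and 4 Rspo genes. The study sequenced polyadenylated RNA of 3 adipose tissues from 6 mice to compare animals that lack the long noncoding RNA Gm15551 with wild type animals. Each of 3 wild type (wt) and 3 knockout (ko) mice gave brown fat from between the shoulder blades (interscapular, iBAT), subcutaneous white fat (inguinal, iWAT) and visceral white fat from beside the testis (epididymal, eWAT), in all 18 libraries in 6 groups of 3.

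The mice, of the C57BL/6N background, were 12 weeks old and on chow. The wt mice were litter mates of the ko mice. The ko mice carried the ∆Gm15551 allele in every tissue, a CRISPR/Cas9 deletion that removes exon 1 of the gene, and all of them stem from that 1 allele. The 3 tissues that share a genotype and a number are those of 1 animal. The tissues were homogenised whole, so the libraries hold RNA of adipocytes and of all other cells of the depot, and a smaller number of cells of a type cannot be told apart from less RNA per cell.

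Wnt proteins are lipid-modified secreted ligands that bind Frizzled receptors. With the co-receptors Lrp5 and Lrp6 they stop the destruction of β-catenin, which then acts with TCF/LEF factors on target genes such as Axin2, while other ligands, among them Wnt5a and Wnt11, act mostly without β-catenin. Sfrp proteins bind the ligands, Dkk1, Dkk2 and Dkk4 bind the co-receptors, and R-spondins bind Lgr receptors and protect Frizzled from the ubiquitin ligases Znrf3 and Rnf43. In adipose tissue, β-catenin signalling by ligands such as Wnt10b is known for holding back the formation of adipocytes from their progenitors.

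RefSeq promoter windows of the GRCm38.p6 build were held for 27 of the 41 genes, and 250 bases before the transcription start are shown for 4 members whose tissue order the results turn on, a pair that was highest in iBAT (Rspo4 and Wnt11) and a pair that was lowest there (Rspo1 and Sfrp2). All 4 lie on the plus strand, at chr2:151842677-151842926, chr7:98834862-98835111, chr4:124986180-124986429 and chr3:83766071-83766320, and each window ends at the base before the annotated start of the gene. They are written 5′ to 3′ in lower case. Capitals mark the motifs searched, each on both strands. The letters CTTTGAT stand for the core that TCF/LEF factors bind. A core shared by many nuclear receptors was searched as AGGTCA. The TATA box near the start of some genes was searched as TATAAA.
Rspo4: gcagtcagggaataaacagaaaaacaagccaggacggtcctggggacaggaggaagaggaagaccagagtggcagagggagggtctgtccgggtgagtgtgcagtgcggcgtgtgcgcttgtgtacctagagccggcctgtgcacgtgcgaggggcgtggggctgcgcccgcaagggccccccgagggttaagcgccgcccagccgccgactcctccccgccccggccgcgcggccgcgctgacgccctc
Wnt11: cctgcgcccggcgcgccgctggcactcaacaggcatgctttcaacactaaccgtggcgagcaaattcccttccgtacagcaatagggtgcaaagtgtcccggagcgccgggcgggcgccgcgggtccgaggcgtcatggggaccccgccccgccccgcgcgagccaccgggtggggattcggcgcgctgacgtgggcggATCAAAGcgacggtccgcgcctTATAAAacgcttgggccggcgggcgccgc
Rspo1: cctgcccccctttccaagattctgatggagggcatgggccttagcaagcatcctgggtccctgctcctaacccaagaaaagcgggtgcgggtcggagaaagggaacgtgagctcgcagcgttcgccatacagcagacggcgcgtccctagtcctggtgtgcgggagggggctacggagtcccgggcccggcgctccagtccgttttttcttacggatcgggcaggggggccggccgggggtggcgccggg
Sfrp2: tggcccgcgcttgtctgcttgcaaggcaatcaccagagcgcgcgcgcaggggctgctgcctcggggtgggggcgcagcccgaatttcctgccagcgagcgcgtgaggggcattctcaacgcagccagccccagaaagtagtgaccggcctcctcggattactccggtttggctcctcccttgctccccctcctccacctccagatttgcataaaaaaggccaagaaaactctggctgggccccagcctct

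In the Wnt11 window the TCF/LEF letters lay on the minus strand, beginning 51 bases before the start, and the TATA letters began 29 bases before it. The other 3 windows shown held none of these letters. Over the 30 windows of the 27 genes, the TCF/LEF letters were found in 2 (6.67%, against 3.21% of 32851 windows of all genes), the nuclear receptor letters in 1 (3.33%, against 14.0%) and the TATA letters in 4 (13.3%, against 12.4%). The members' windows had a median GC content of 68.8% and a median of 22 CpG, against 52.4% and 6 over all windows.

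Total counts ranged from 14997901 to 34389586 per library. Levels are given as CPM, that is counts relative to the total of the library after edgeR's scaling by the trimmed mean of M values (TMM). Where a library has no count of a gene, its level may still be up to 0.0728 to 0.235 CPM, the worth of 3 counts, for counting error alone. Gm15551 was at 1.95 to 11.7 CPM in the 9 wt libraries and at 0 to 0.097 CPM in the 9 ko libraries, so every library matched its genotype label. The summed level of 10 brown adipocyte markers was 7439.6 to 12928 CPM in iBAT, 51.5 to 374 CPM in iWAT and 38.9 to 75.7 CPM in eWAT. The sum of 6 general adipocyte markers was 7809 to 22894 CPM over all libraries. Of the white libraries 4 stood furthest apart by genes of other tissues. The lymph node list reached 1331 CPM in iWAT wt replicate 3 and 531 CPM in iWAT ko replicate 2 (6.14 to 20.4 CPM in the other iWAT libraries), the skeletal muscle list 4798 CPM in iWAT ko replicate 1 (19.2 to 62.3 CPM in the others) and the epididymis list 5093 CPM in eWAT ko replicate 3 (0.215 to 34.8 CPM in the others). Lower levels of such genes were also found in some libraries that stay in every value given without these 4. In iWAT ko replicate 3, the only iWAT ko library then left, Krt5 was at 6.93 CPM, the epidermis list at 15.7 CPM (3.17 to 13.1 CPM in the other iWAT libraries) and the mesothelium list at 57.6 CPM (6.08 to 39.1 CPM). Of the mesothelium list, Krt19 alone was at 50.6 CPM in this library, with Upk3b at 0 and Wt1 at 0.0734 CPM. In eWAT wt replicate 1 the epididymis list was at 34.8 CPM, against 0.215 to 2.77 CPM in the eWAT libraries other than ko replicate 3. In eWAT ko replicate 2 the lymph node list was at 63.5 CPM, against 14.0 to 35.8 CPM in the other eWAT libraries. The testis list was at 5.41 and 7.38 CPM in eWAT wt replicates 1 and 2. It was at 0.148 to 0.315 CPM in eWAT wt replicate 3 and ko replicates 1 and 2. Beside each call of a member that was lost without these 4 libraries, the value without them is given.

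Of the 41 genes, 31 had enough counts to be tested. The 10 others were Wnt1, Wnt3, Wnt3a, Wnt7a, Wnt8a, Wnt16, Fzd9, Dkk1, Dkk4 and Rspo2. None of these 10 exceeded 13 counts in any library. The filter keeps a gene that is high in a single group, so a gene that passed it through 1 tissue had to differ between tissues, and the counts over the 31 genes below are a description.

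Per kilobase of exons, Fzd4 stood first among the 41 genes in each tissue. Fzd4 lies at chr7:89404355-89413134 of GRCm38 and encodes a receptor for Wnt proteins and for norrin. Its level was 28.7 ± 2.86 CPM per kb (mean ± SD, n = 6) in iBAT, 38.1 ± 12.5 in iWAT and 66.5 ± 15.5 in eWAT. This was 61.0 ± 2.25%, 63.4 ± 8.19% and 74.0 ± 7.58% of the summed level of the 10 Frizzled genes. The second place among all members was held by another gene in each tissue, namely Fzd7 in iBAT (7.88 ± 1.27 CPM per kb), Sfrp2 in iWAT (15.3 ± 13.8) and Rspo1 in eWAT (7.62 ± 3.14). The SD of Sfrp2 was nearly as large as its mean, so its place in iWAT does not stand apart from that of Sfrp5 (9.85 ± 6.32). In eWAT the place of Rspo1 does not stand apart from that of Fzd1 (6.99 ± 1.03).

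The share of each member in its family was computed per library as a description, and differences in shares were not tested. Among the Wnt ligands, Wnt11 held 41.8 ± 9.78% of the summed level per kilobase in iBAT, 9.98 ± 4.78% in iWAT and 5.99 ± 4.18% in eWAT, and Wnt5a held 28.6 ± 5.90%, 27.8 ± 13.1% and 30.4 ± 11.8%. Wnt9a held 11.0 ± 1.79%, 11.7 ± 5.04% and 21.3 ± 2.77%, beside which Wnt2 held 11.8 ± 8.05% and Wnt6 11.4 ± 2.82% in iWAT. Among the R-spondins, Rspo4 held 85.4 ± 8.55% in iBAT, 23.1 ± 21.5% in iWAT and 0.0543 ± 0.133% in eWAT, and Rspo1 held 11.6 ± 6.92%, 49.6 ± 25.5% and 85.2 ± 9.85%. Rspo3 held 24.2 ± 12.1% in iWAT. In iBAT, Sfrp5 led its family with 70.4 ± 4.02%. Dkk3 led the Dickkopf genes in each tissue, with 72.3 ± 12.5%, 60.1 ± 14.3% and 72.3 ± 13.8%. Neither Wnt3a nor Wnt8a had a count in any iBAT or iWAT library.

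**Figure D1:**
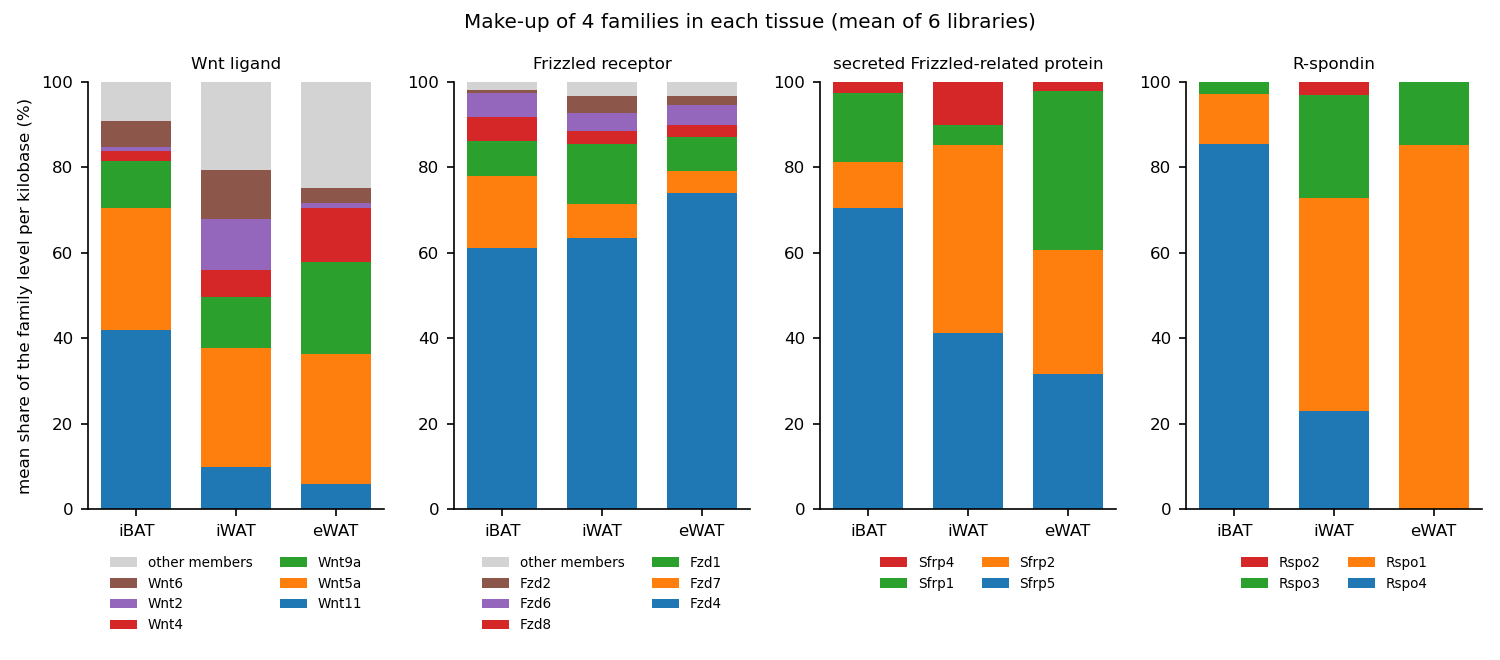
Share of each member in the summed level per kilobase of its family (vertical axis, %), as the mean of 6 libraries per tissue (bars for iBAT, iWAT and eWAT) in 4 families. The R-spondin bar is 85.4% Rspo4 in iBAT and 85.2% Rspo1 in eWAT, and Fzd4 makes up 61.0 to 74.0% of the Frizzled bars.

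The contrasts between tissues were tested with edgeR's quasi-likelihood test across 18728 genes, with Benjamini-Hochberg adjustment and a threshold of 0.05. In iBAT against iWAT, 21 of the 31 members passed the test, 4 higher and 17 lower in iBAT, beside 54.3% of all genes (24% higher and 30.3% lower). In iBAT against eWAT 24 passed, 3 higher and 21 lower, beside 54.6% of all genes (24.4% higher and 30.2% lower). In iWAT against eWAT 10 passed, 4 higher and 6 lower, beside 10.2% of all genes (5.7% higher and 4.5% lower). The median log2 fold change of the members was -1.21, -1.73 and 0.01 in these contrasts, and that of all genes tested was -0.14, -0.17 and 0.01. Both iBAT contrasts share the iBAT libraries. Wnt6, Wnt10a and Fzd6 passed in none of the 3 contrasts, and Wnt10b, Fzd5, Rspo1 and Rspo4 passed in all 3. The 6 libraries of the compared tissues did not overlap for 12 members in iBAT against iWAT (34.6% of all genes), for 15 in iBAT against eWAT (37.3%) and for 3 in iWAT against eWAT (4.62%).

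**Figure D2:**
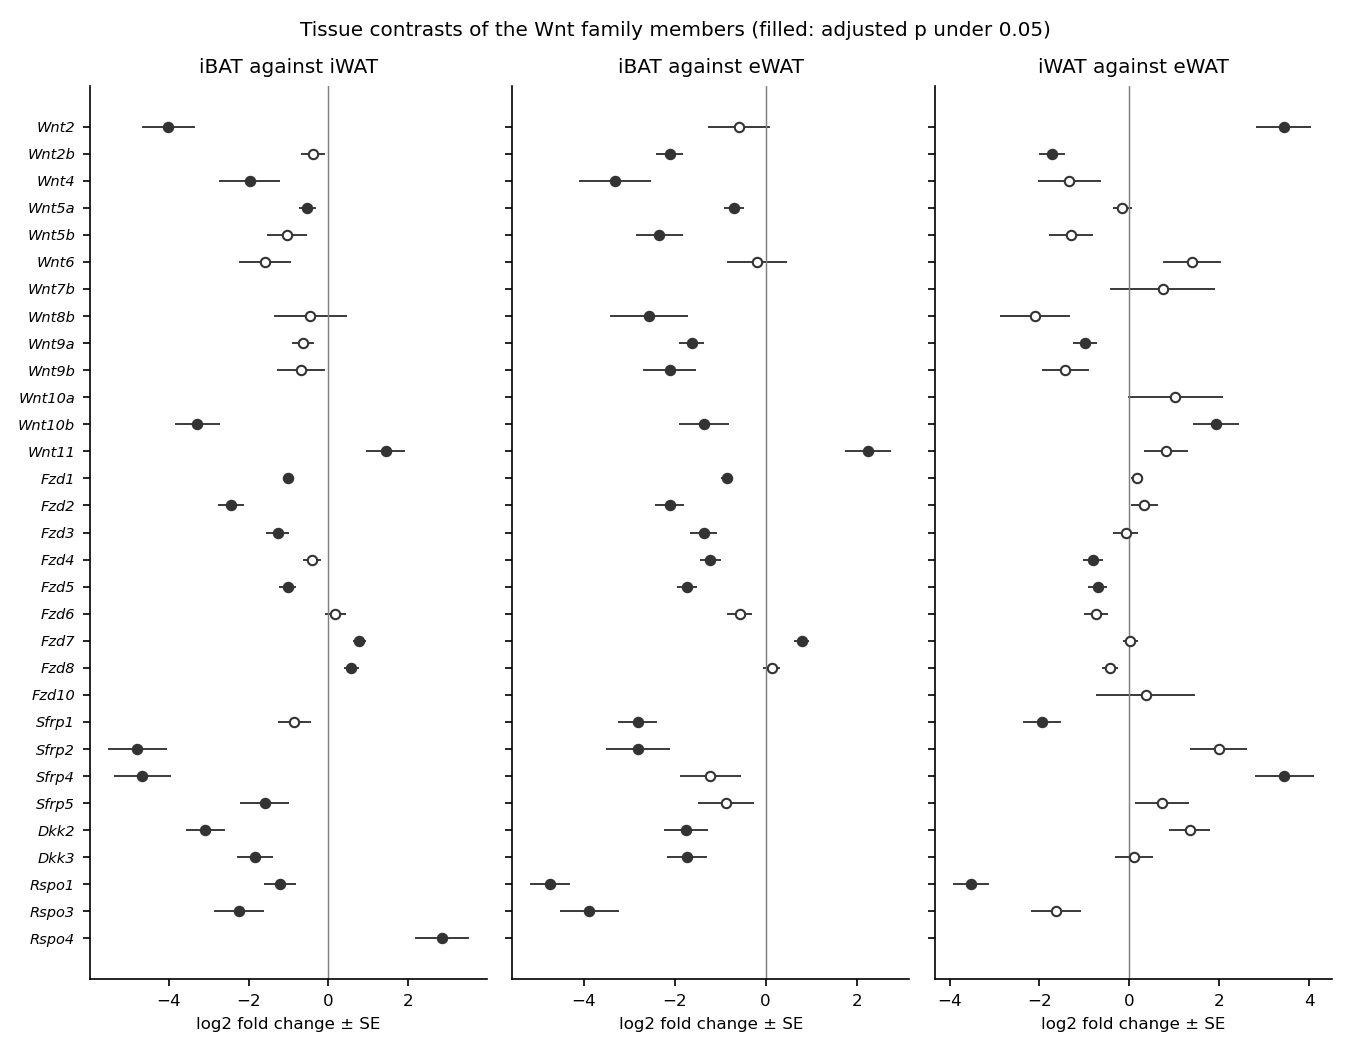
Log2 fold change ± SE (horizontal axis) of the 31 tested members (rows) in the 3 tissue contrasts (panels), with filled points for members past the adjusted threshold. Points left of 0 are lower in the tissue named first. In both iBAT panels most filled points lie left of 0, with Wnt11 and Fzd7 on the right in each, and genes with at most 3 counts in all 6 libraries of a tissue are not drawn in that tissue's contrasts where the other tissue exceeded this.

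Wnt11 was the only ligand that was higher in iBAT than in both white tissues among those past the test. Wnt11, at chr7:98835112-98855195, is a ligand of cell polarity signalling. Its level ran from 5.32 to 17.96 CPM in iBAT (median 13.9), from 1.97 to 7.48 CPM in iWAT (median 4.53) and from 0.545 to 5.19 CPM in eWAT (median 1.98). The iBAT libraries all lay above the eWAT libraries, while iBAT ko replicate 1 at 5.32 CPM fell within the range of iWAT. On the log2 scale it was higher by 1.43 ± 0.49 (SE) than in iWAT (edgeR, adjusted p = 0.0211) and by 2.26 ± 0.51 than in eWAT (adjusted p = 0.00125). Without iBAT ko replicate 3 the former had an adjusted p of 0.0515, and without the 4 libraries with other tissue it was 2.42 (adjusted p = 0.000767).

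Wnt5a, at chr14:28504750-28527448, had the highest counts of the ligands. It was at 12.7 to 19.4 CPM in iBAT (median 14.7), 9.17 to 27.3 CPM in iWAT (median 23.8) and 16.3 to 29.0 CPM in eWAT (median 24.6). The lowest iWAT value belonged to wt replicate 3 and the lowest eWAT value to ko replicate 3, both among the libraries that stood apart. Wnt5a was lower in iBAT by 0.69 ± 0.21 on the log2 scale against eWAT (edgeR, adjusted p = 0.0108). Against iWAT the difference was -0.54 ± 0.21 (adjusted p = 0.0409), and this call was lost in 10 of 12 fits that left out 1 library (adjusted p from 0.0561 to 0.0955 in those) and in a fit with a block for each animal (adjusted p = 0.0532), while without the 4 libraries it was -0.73 (adjusted p = 0.000113).

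**Figure D3:**
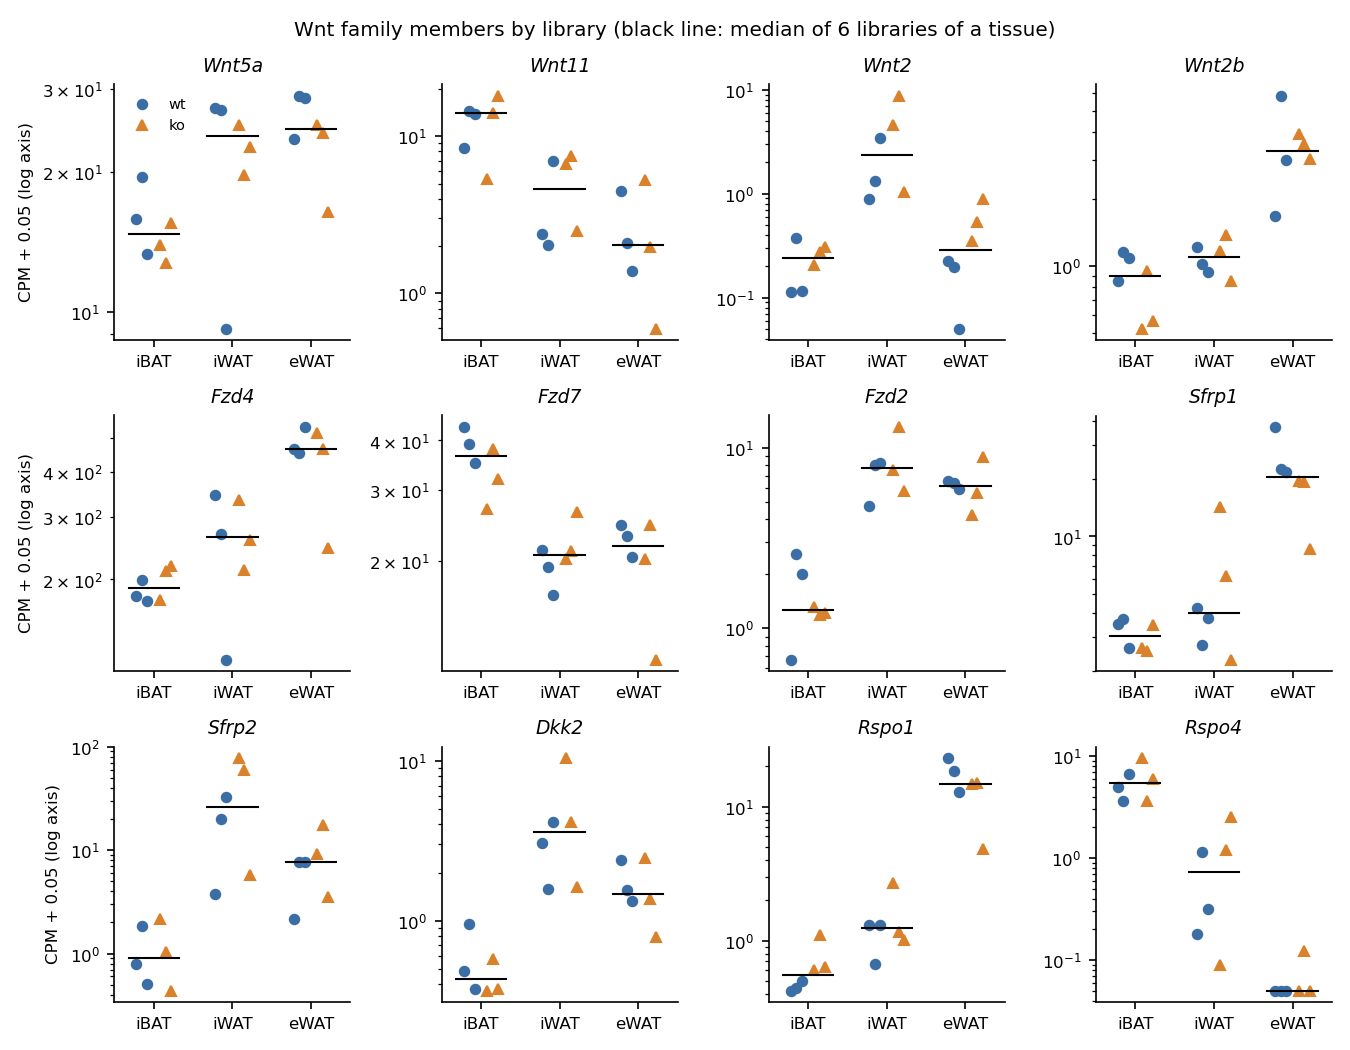
Levels of 12 members (panels) in each library, as CPM + 0.05 on a log axis, by tissue (horizontal axis) and genotype (circles wt, triangles ko), with a black line at the median of the 6 libraries of a tissue. Rspo4 and Fzd7 sit highest in iBAT, Rspo1, Sfrp1 and Wnt2b highest in eWAT and Wnt2 highest in iWAT, and Sfrp2 spreads widest in iWAT.

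A group of ligands was higher in iWAT. Wnt2, a ligand of β-catenin signalling, was at 0.0619 to 0.324 CPM in iBAT (median 0.191), 0.844 to 8.64 CPM in iWAT (median 2.32) and 0 to 0.842 CPM in eWAT (median 0.238). No iBAT or eWAT library reached the lowest iWAT library, although the margin to eWAT was narrow. Wnt2 differed on the log2 scale by -4.02 ± 0.67 in iBAT against iWAT (edgeR, adjusted p = 9.04e-05) and 3.43 ± 0.61 in iWAT against eWAT (adjusted p = 0.00198). Without the 4 libraries with other tissue these were -2.71 (adjusted p = 0.00337) and 2.42 (adjusted p = 0.0294).

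Wnt10b, known for restraining adipogenesis, followed the same order of tissues. It was at 0.129 to 0.519 CPM in iBAT (median 0.367), 1.18 to 10.8 CPM in iWAT (median 2.27) and 0.247 to 1.54 CPM in eWAT (median 1.03). All iWAT libraries lay above all iBAT libraries, and 2 of the iWAT libraries, ko replicates 1 and 2, lay above 6 CPM. Wnt10b had a log2 fold change of -3.29 ± 0.57 in iBAT against iWAT (edgeR, adjusted p = 0.000133), or -2.33 without the 4 libraries (adjusted p = 0.00283). In iBAT against eWAT it was -1.36 ± 0.55 (adjusted p = 0.047), a call that was lost in 9 of 12 fits without 1 library. In iWAT against eWAT it was 1.93 ± 0.51 (adjusted p = 0.0248), a call lost in 5 of 12 such fits and without the 4 libraries (0.997, adjusted p = 0.286).

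Wnt2b, Wnt9a, Wnt5b, Wnt8b and Wnt9b were higher in eWAT than in iBAT. Wnt2b was at 0.47 to 1.10 CPM in iBAT, 0.807 to 1.33 CPM in iWAT and 1.63 to 5.77 CPM in eWAT, so every eWAT library exceeded all others. Its log2 fold change was -2.10 ± 0.30 in iBAT against eWAT (edgeR, adjusted p = 1.5e-05) and -1.71 ± 0.29 in iWAT against eWAT (adjusted p = 0.00112). Wnt9a was at 1.88 to 3.41 CPM in iBAT, 1.71 to 5.84 CPM in iWAT and 5.83 to 12.5 CPM in eWAT. It differed by -1.62 ± 0.28 between iBAT and eWAT (adjusted p = 0.000104) and by -0.98 ± 0.27 between iWAT and eWAT (adjusted p = 0.0296). The latter call was lost in 5 of 12 fits without 1 library and without the 4 libraries (-0.74, adjusted p = 0.0658). For Wnt5b, Wnt8b and Wnt9b the log2 fold change in iBAT against eWAT was -2.34 ± 0.52, -2.56 ± 0.86 and -2.11 ± 0.58 (adjusted p = 0.00108, 0.0189 and 0.00565). Wnt8b and Wnt9b were scarce, with at most 38 and 29 counts in a library, and the fold change of Wnt8b was -3.22 without iBAT ko replicate 2.

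Wnt4 and Wnt7b were high in a few white libraries. Wnt4 was at 0.519 to 0.751 CPM in iBAT, 0.812 to 6.93 CPM in iWAT and 1.12 to 36.8 CPM in eWAT, so both white tissues lay wholly above iBAT. In iBAT against eWAT its log2 fold change was -3.31 ± 0.79 (edgeR, adjusted p = 0.00206), and -2.10 without eWAT ko replicate 3, the library at 36.8 CPM (adjusted p = 0.00409). Against iWAT it was -1.98 ± 0.76 (adjusted p = 0.0352), a call lost in 6 of 12 fits without 1 library (adjusted p from 0.0519 to 0.121). Wnt7b had 1 count over the 6 iBAT libraries (in wt replicate 3), 182 over the iWAT libraries and 75 over the eWAT libraries. Pooled over libraries, the ratio of its level to that of iBAT was 96.9 in iWAT (95% interval 17.2 to 3848, exact and for counting error only) and 44.8 in eWAT (7.81 to 1794). The edgeR test called both differences (adjusted p = 0.0148 and 0.0334), and the latter call was lost in 8 of 12 fits without 1 library (adjusted p from 0.0562 to 0.0881) and without the 4 libraries (adjusted p = 0.0623, ratio 24.2 with an interval of 4.07 to 984). These ratios rest on 3 iWAT libraries (wt replicate 3, ko replicates 2 and 3) and, in eWAT, mostly on wt replicate 1 and ko replicate 3. Wnt7b passed the filter on low counts through the white libraries alone, so its tests against iBAT are a description.

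Wnt6 and Wnt10a are neighbours on chromosome 1, with a gap of 6193 bp, and are both known as ligands that hold back adipogenesis. Wnt6 was at 0.248 to 1.36 CPM in iBAT, 1.58 to 3.72 CPM in iWAT and 0.0494 to 2.90 CPM in eWAT. Its iBAT and iWAT libraries did not overlap, yet the adjusted p of iBAT against iWAT was 0.0505. Wnt10a stayed at or below 1.09 CPM in every library. Its highest values were in eWAT ko replicate 3 (1.09 CPM) and iWAT ko replicate 2 (0.77 CPM). The pooled ratio of Wnt10a to iBAT was 10.1 in iWAT (95% interval 3.29 to 50.5, counting error only) and 4.98 in eWAT (1.52 to 25.8). Without the 4 libraries with other tissue it was 2.38 in iWAT (0.543 to 14.3) and 0.692 in eWAT (0.0927 to 5.17).

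Among the receptors, 5 of the 9 tested were lower in iBAT than in iWAT and 6 of 9 lower than in eWAT, beside 30.3% and 30.2% of all genes. Fzd4 was at 174 to 218 CPM in iBAT (median 190), 119 to 345 CPM in iWAT (median 263) and 245 to 536 CPM in eWAT (median 465). All eWAT libraries exceeded all iBAT libraries, although eWAT ko replicate 3 at 245 CPM stood far below the other 5. Fzd4 was lower in iBAT than in eWAT by 1.21 ± 0.22 on the log2 scale (edgeR, adjusted p = 0.000216). In iWAT against eWAT it was -0.80 ± 0.22 (adjusted p = 0.0303), a call lost in 7 of 12 fits without 1 library (adjusted p from 0.0532 to 0.0792) and kept without the 4 libraries (-0.75, adjusted p = 0.00154). In iBAT against iWAT it did not pass (-0.41 ± 0.22, adjusted p = 0.128).

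Fzd7 had the opposite direction. This receptor, which serves both branches of the pathway, was at 26.9 to 43.1 CPM in iBAT (median 36.6), 16.3 to 26.5 CPM in iWAT (median 20.6) and 11.2 to 24.5 CPM in eWAT (median 21.7). Every iBAT library exceeded every white library. It exceeded iWAT by 0.78 ± 0.17 on the log2 scale (edgeR, adjusted p = 0.000978) and eWAT by 0.79 ± 0.17 (adjusted p = 0.000795). Fzd8 was higher in iBAT than in iWAT by 0.57 ± 0.19 (adjusted p = 0.0161), with overlapping ranges of 13.0 to 19.3 and 5.90 to 13.1 CPM, and by 0.32 without the 4 libraries (adjusted p = 0.0627).

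Fzd1, Fzd2, Fzd3 and Fzd5 were all lower in iBAT. Fzd1 was at 12.1 to 19.9 CPM in iBAT, 27.2 to 39.1 CPM in iWAT and 22.9 to 32.8 CPM in eWAT. Fzd2, which is close to Fzd1 and Fzd7 in sequence, was at 0.619 to 2.53, 4.68 to 12.9 and 4.16 to 8.86 CPM. Neither receptor had an iBAT library within the range of a white tissue. In iBAT against iWAT and against eWAT, the log2 fold change was -1.01 ± 0.13 and -0.84 ± 0.13 for Fzd1 (edgeR, adjusted p = 6.25e-06 and 3.56e-05) and -2.44 ± 0.32 and -2.11 ± 0.32 for Fzd2 (adjusted p = 8.88e-06 and 3.14e-05). For Fzd3, a receptor of cell polarity, it was -1.28 ± 0.29 and -1.36 ± 0.29 (adjusted p = 0.0015 and 0.000911). For Fzd5 it was -1.02 ± 0.22 and -1.73 ± 0.22 (adjusted p = 0.000755 and 4.41e-06). In iWAT against eWAT Fzd5 was at -0.71 ± 0.21 (adjusted p = 0.0426), a call that was lost in 9 of 12 fits without 1 library, in the fit blocked by animal (adjusted p = 0.0507), and without the 4 libraries (-0.47, adjusted p = 0.223).

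Fzd10 had 3 counts over the 6 iBAT libraries, 131 over iWAT and 89 over eWAT. Its pooled ratio to iBAT was 23.2 in iWAT (95% interval 7.78 to 114, counting error only) and 17.7 in eWAT (5.88 to 87.6). The highest values were 2.14 and 1.95 CPM in iWAT ko replicate 2 and wt replicate 3, and 3.17 CPM in eWAT ko replicate 3. The edgeR calls (adjusted p = 0.0248 and 0.0384) were lost in 5 and 7 of 12 fits without 1 library, and the call against eWAT also in the fit blocked by animal (adjusted p = 0.0523). Both were lost without the 4 libraries (adjusted p = 0.133 against iWAT and 0.174 against eWAT), and without eWAT ko replicate 3 alone the adjusted p against eWAT was 0.233. Without these libraries the pooled ratio was 7.14 in iWAT (2.13 to 37.4) and 5.77 in eWAT (1.76 to 29.8). Like Wnt7b, Fzd10 passed the filter through the white libraries alone, so its tests against iBAT are a description. Fzd6 was at 8.38 to 15.3, 9.22 to 14.9 and 9.27 to 33.0 CPM in the 3 tissues.

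Of the 4 secreted Frizzled-related proteins, Sfrp2, Sfrp4 and Sfrp5 were lower in iBAT than in iWAT, and Sfrp1 and Sfrp2 lower than in eWAT. Sfrp1 was at 2.48 to 3.69 CPM in iBAT, 2.24 to 14.2 CPM in iWAT (median 3.96) and 8.57 to 36.9 CPM in eWAT (median 20.4). Only iWAT ko replicate 1 reached the eWAT range. On the log2 scale Sfrp1 was at -2.81 ± 0.43 in iBAT against eWAT (edgeR, adjusted p = 3.37e-05) and -1.95 ± 0.42 in iWAT against eWAT (adjusted p = 0.00791), or -3.00 without the 4 libraries.

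Sfrp2 and Sfrp4 are secreted by stromal cells in many tissues. Sfrp2 was at 0.386 to 2.11 CPM in iBAT (median 0.86), 3.73 to 77.3 CPM in iWAT (median 26.0) and 2.11 to 17.4 CPM in eWAT (median 7.64). Sfrp4 was at 0.248 to 0.972 CPM in iBAT, 2.02 to 41.0 CPM in iWAT and 0.594 to 2.79 CPM in eWAT. The iWAT libraries all lay above the iBAT libraries for both genes, and within iWAT both were highest in wt replicate 3, ko replicate 1 and ko replicate 2. In iBAT against iWAT the log2 fold change was -4.79 ± 0.74 for Sfrp2 (edgeR, adjusted p = 4.6e-05) and -4.67 ± 0.72 for Sfrp4 (adjusted p = 4.3e-05). Without the 4 libraries it was -3.31 (adjusted p = 0.000984) and -2.85 (adjusted p = 0.000702). Sfrp2 was also lower in iBAT than in eWAT by 2.81 ± 0.70 (adjusted p = 0.0027), and did not pass in iWAT against eWAT (1.98 ± 0.63, adjusted p = 0.0548). The difference of Sfrp4 between iWAT and eWAT, 3.45 ± 0.66 (adjusted p = 0.00329), was 1.43 without the 4 libraries (adjusted p = 0.125).

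Sfrp5, an antagonist of Wnt5a that adipocytes secrete, was at 4.06 to 8.49 CPM in iBAT, 9.21 to 41.9 CPM in iWAT and 1.99 to 29.4 CPM in eWAT. The eWAT libraries were spread, with 29.4 and 23.3 CPM in ko replicate 1 and wt replicate 1, 7.28 CPM in ko replicate 2 and 1.99 to 2.77 CPM in the other 3. In iBAT against iWAT Sfrp5 had a log2 fold change of -1.60 ± 0.62 (edgeR, adjusted p = 0.0376). This call was lost in 9 of 12 fits without 1 library (adjusted p from 0.0521 to 0.102) and without the 4 libraries (-1.25, adjusted p = 0.139), although the iBAT and iWAT ranges did not overlap.

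Of the Dickkopf genes, Dkk2 and Dkk3 were tested and both were lower in iBAT. Dkk2, which binds the co-receptors, was at 0.313 to 0.907 CPM in iBAT, 1.52 to 10.4 CPM in iWAT and 0.743 to 2.40 CPM in eWAT. Dkk3, the divergent member of the family, was at 0.681 to 2.90, 2.73 to 9.10 and 2.19 to 10.9 CPM. The iBAT libraries of Dkk2 lay below all iWAT libraries, and those of Dkk3 overlapped both white tissues by 1 library, iBAT ko replicate 1. The log2 fold change of Dkk2 was -3.09 ± 0.50 against iWAT (edgeR, adjusted p = 7.16e-05), -2.06 without the 4 libraries, and -1.74 ± 0.48 against eWAT (adjusted p = 0.00585). That of Dkk3 was -1.84 ± 0.44 against iWAT (adjusted p = 0.00217), -1.18 without the 4 libraries (adjusted p = 0.0644), and -1.73 ± 0.45 against eWAT (adjusted p = 0.00353). Dkk1 had at most 5 counts and Dkk4 at most 3 counts in a library.

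The R-spondins differed in which member was present. Rspo4, at chr2:151842927-151874668, was at 3.53 to 9.47 CPM in iBAT (median 5.37), 0.0387 to 2.49 CPM in iWAT (median 0.685) and 0 to 0.0728 CPM in eWAT, where 5 of 6 libraries had no count. Every iBAT library exceeded every white library. Its log2 fold change was 2.84 ± 0.68 in iBAT against iWAT (edgeR, adjusted p = 0.00209), or 2.26 without the 4 libraries. Pooled over libraries, iBAT had 495 counts and eWAT 3, a ratio of 276 (95% interval 93.9 to 1343, counting error only), and the ratio of iWAT to eWAT was 41.6 (13.9 to 204). All 3 eWAT counts were in ko replicate 2. Both differences passed the edgeR test (adjusted p = 2.7e-06 and 0.00242). As Rspo4 could not pass the filter on low counts through eWAT, its tests against eWAT are a description.

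Rspo1, at chr4:124986430-125009099, took the opposite order. It was at 0.371 to 1.05 CPM in iBAT (median 0.50), 0.622 to 2.63 CPM in iWAT (median 1.18) and 4.75 to 23.0 CPM in eWAT (median 14.8). All eWAT libraries exceeded all others, the lowest being ko replicate 3. Rspo1 had a log2 fold change of -4.74 ± 0.43 in iBAT against eWAT (edgeR, adjusted p = 1.02e-07) and -3.53 ± 0.40 in iWAT against eWAT (adjusted p = 2.89e-05), or -4.13 without the 4 libraries. Against iWAT, iBAT was at -1.21 ± 0.40 (adjusted p = 0.0167), a call lost without iWAT ko replicate 1 (-0.87, adjusted p = 0.0622) and without the 4 libraries (-0.78, adjusted p = 0.0707). Rspo3 was at 0 to 0.582, 0.227 to 1.80 and 1.20 to 5.05 CPM in iBAT, iWAT and eWAT. It was lower in iBAT by 2.24 ± 0.63 against iWAT (adjusted p = 0.00671) and by 3.88 ± 0.65 against eWAT (adjusted p = 8.18e-05).

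Markers of other cells moved with several of these members. Upk3b and Wt1, genes of the mesothelium that covers visceral fat, were at 13.1 to 61.9 and 5.05 to 14.4 CPM in eWAT and at or below 0.0974 CPM in the other tissues, and the sum of 9 mesothelial markers was 4.58 to 8.30 CPM in iBAT, 6.08 to 57.6 CPM in iWAT and 83.9 to 157 CPM in eWAT. In iWAT the higher sums were mostly Krt19, at 22.6, 32.0 and 50.6 CPM in wt replicate 3, ko replicate 2 and ko replicate 3. Without Krt19 the sum of the other 8 markers was 4.52 to 8.17 CPM in iBAT, 4.67 to 7.50 CPM in iWAT and 36.6 to 145 CPM in eWAT. Lrrn4 of this list had another order, at 3.76 to 6.57 CPM in iBAT, 0.627 to 2.05 CPM in iWAT and 3.03 to 13.4 CPM in eWAT. Of the 9 markers 5 were lower and 1 was higher in iBAT than in iWAT, and 8 were lower in iBAT than in eWAT. Rspo1, Sfrp1, Rspo3 and Wnt2b were likewise higher in eWAT than in iBAT. The sum of 12 progenitor and fibroblast markers was 613 to 898 CPM in iBAT, 3344 to 10288 CPM in iWAT and 1344 to 2932 CPM in eWAT, with the iWAT maximum in ko replicate 2 (10288 CPM) and the next in ko replicate 1 (6785 CPM). Of these 12 markers 11 were lower in iBAT than in iWAT and 9 lower than in eWAT. All 6 macrophage markers were lower in iBAT in both contrasts, with a sum of 64.5 to 161 CPM in iBAT, 281 to 1655 CPM in iWAT and 160 to 584 CPM in eWAT. The 6 Schwann cell markers summed to 103 to 236 CPM in iBAT, 253 to 633 CPM in iWAT and 23.4 to 46.2 CPM in eWAT, and all 6 were lower in eWAT than in iBAT and in iWAT. The part of these cells in the members' differences was not tested.

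The keratins Krt5 and Krt14, markers of basal epithelium, were at 0 CPM in all iBAT libraries and in iWAT wt replicates 1 and 2 and ko replicate 1. In iWAT wt replicate 3, ko replicate 2 and ko replicate 3, Krt5 was at 2.61, 5.22 and 6.93 CPM, and in eWAT ko replicate 3 it was at 47.0 CPM and at 0 in the other eWAT libraries. The other genes of the epidermis list did not follow in these 3 iWAT libraries. Krt10 was at 2.84, 3.98 and 3.82 CPM in them and at 2.94 to 4.16 CPM in the other 3, and Lor and Krt1 were at or below 0.477 and 0.0428 CPM in iWAT. Wnt7b was at 1.19, 2.05 and 3.60 CPM in these 3 iWAT libraries and at 0 in the other 3. Wnt4 was at 3.59, 3.29 and 6.93 CPM in them and at 0.812 to 1.16 CPM in the other 3. In eWAT, ko replicate 3 had the highest Wnt4 (36.8 CPM), Wnt7b (1.98 CPM), Wnt10a (1.09 CPM) and Fzd10 (3.17 CPM) of the 6 libraries. The part of epithelial cells in these levels was not tested.

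**Figure D4:**
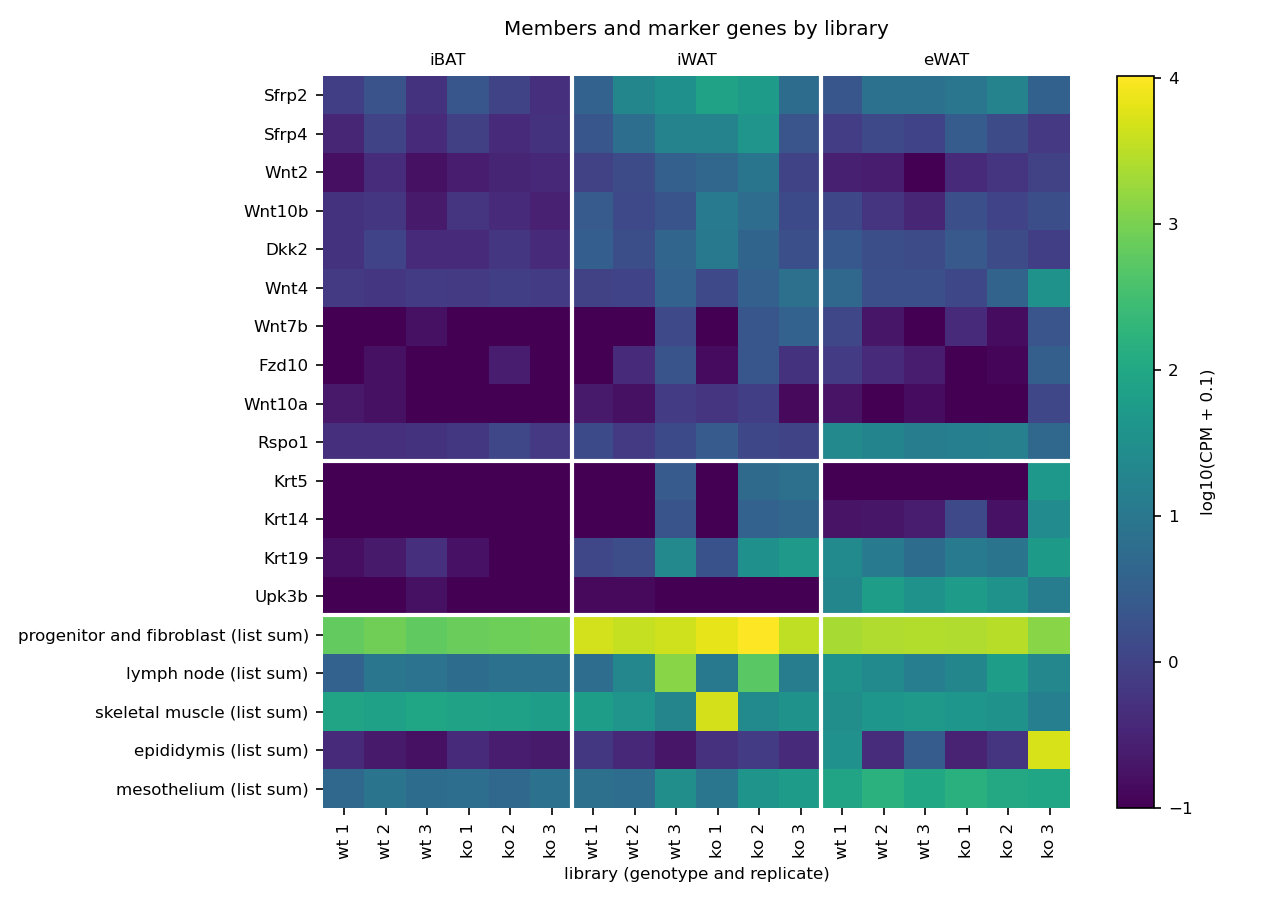
Levels in the 18 libraries (columns, by tissue, genotype and replicate) of 10 members, 4 marker genes and 5 summed marker lists (rows), as log10(CPM + 0.1) in colour. The iWAT libraries wt 3, ko 2 and ko 3 share colour in Wnt7b, Wnt4, Krt5, Krt14 and Krt19, and eWAT ko 3 stands apart in Wnt4, Krt5 and the epididymis list at 5093 CPM.

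Of 57 further genes of the pathway, 53 were tested. In iBAT against iWAT 33 passed (6 higher, 27 lower), in iBAT against eWAT 35 (7 higher, 28 lower) and in iWAT against eWAT 9 (5 higher, 4 lower), beside 54.3%, 54.6% and 10.2% of all genes. Their median log2 fold change was -0.65, -0.55 and -0.12. Among the receptors of R-spondins, Lgr6 was at 26.2 to 168 CPM in iBAT, 0.116 to 3.08 CPM in iWAT and 0.129 to 0.791 CPM in eWAT, so that it was high in the tissue where Rspo4 was high. Its log2 fold change was 6.18 ± 0.76 against iWAT (edgeR, adjusted p = 3.85e-06) and 7.75 ± 0.84 against eWAT (adjusted p = 7.4e-07). Lgr4 was higher in eWAT, at 33.5 to 67.1 CPM against 15.8 to 25.7 CPM in iBAT and 12.0 to 25.1 CPM in iWAT (log2 fold change -1.15 ± 0.19 and -1.16 ± 0.19, adjusted p = 8.96e-05 and 0.00105). Lgr5 was scarce, and its median was 0.713 CPM in iWAT, 0.0647 CPM in iBAT and 0.0907 CPM in eWAT.

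The co-receptors varied less. Lrp6 passed in no contrast, with medians of 83.5, 87.3 and 74.2 CPM in iBAT, iWAT and eWAT, and the log2 fold change of Lrp5 in iBAT against eWAT was -0.58 ± 0.17 (edgeR, adjusted p = 0.0075). Wls, which carries ligands to the cell surface, was at 31.9 to 45.0 CPM in iBAT, 55.7 to 88.9 CPM in iWAT and 71.8 to 94.9 CPM in eWAT. Its log2 fold change was -1.07 ± 0.11 and -1.17 ± 0.11 in the iBAT contrasts (adjusted p = 4.1e-07 and 1.1e-07). Porcn, which attaches the lipid to the ligands, had a log2 fold change of -0.61 ± 0.16 in iBAT against eWAT and of -0.78 ± 0.16 in iWAT against eWAT (adjusted p = 0.00364 and 0.00547). Ctnnb1, which encodes β-catenin, passed in none of the contrasts, with medians of 386, 334 and 365 CPM.

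Inside the cell, Gsk3a and Dvl3 were higher in iBAT. Gsk3a, a kinase of the β-catenin destruction complex, had a log2 fold change of 1.05 ± 0.09 and 1.14 ± 0.09 in the iBAT contrasts (edgeR, adjusted p = 9.27e-08 and 2.58e-08), and Dvl3, which binds Frizzled on the inner side, of 1.16 ± 0.13 and 1.07 ± 0.13 (adjusted p = 1.78e-06 and 3.49e-06). Tcf7l2, a nuclear partner of β-catenin, was at -1.45 ± 0.18 and -1.70 ± 0.18 (adjusted p = 3.75e-06 and 5.38e-07). The target and feedback inhibitor Nkd1 was at -2.01 ± 0.28 and -2.74 ± 0.29 (adjusted p = 1.66e-05 and 5.06e-07). The membrane inhibitor Apcdd1 was at 3.99 to 13.2 CPM in iBAT, 80.6 to 160 CPM in iWAT and 115 to 299 CPM in eWAT, with -3.92 ± 0.29 and -4.78 ± 0.31 (adjusted p = 1.74e-08 and 1.88e-09).

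Axin2, the target and feedback inhibitor most used as a readout of β-catenin signalling, was highest in eWAT. It was at 13.2 to 34.8 CPM in iBAT (median 29.5), 13.2 to 28.2 CPM in iWAT (median 16.1) and 42.4 to 91.9 CPM in eWAT (median 64.0). Every eWAT library exceeded all others. Axin2 had a log2 fold change of -1.24 ± 0.24 in iBAT against eWAT (edgeR, adjusted p = 0.00031) and -1.81 ± 0.24 in iWAT against eWAT (adjusted p = 0.000139), and iBAT and iWAT did not differ past the threshold (0.57 ± 0.24, adjusted p = 0.0503). Among the inhibitors and polarity genes with a different order, Frzb was highest in iWAT (-2.18 ± 0.58 in iBAT against iWAT and 2.94 ± 0.59 in iWAT against eWAT, adjusted p = 0.00425 and 0.00505), the latter 3.94 without eWAT ko replicate 2. Sostdc1, an antagonist of Wnt and BMP signalling, was at 0.371 to 1.88, 2.38 to 5.33 and 0 to 0.347 CPM in iBAT, iWAT and eWAT (3.14 ± 0.64 in iBAT against eWAT, adjusted p = 0.000529). Of the polarity cadherins, Celsr2 was highest in iWAT (2.35 ± 0.34 against eWAT, adjusted p = 0.000337) and Celsr3 in iBAT (2.12 ± 0.20 and 1.60 ± 0.20, adjusted p = 2.03e-07 and 3.12e-06).

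The study's own question was whether the loss of Gm15551 changes these tissues. No member passed the edgeR test between ko and wt, neither across the 3 tissues, nor within iBAT, iWAT or eWAT, nor in the interaction of genotype with tissue, and none passed with DESeq2. Over all genes, 0.00534% passed with edgeR across tissues, 0% in iBAT, 0% in iWAT, 0.00534% in eWAT and 0% in the interaction. With DESeq2, 4 genes passed across tissues, 7 in iBAT, 5 in iWAT, 13 in eWAT and 0 in the interaction, out of 17562 to 18285 with an adjusted p. At an unadjusted p under 0.05 edgeR gave 4 members across tissues, 0 in iBAT, 3 in iWAT, 2 in eWAT and 1 in the interaction, out of 31, beside 2.19%, 1.27%, 2.22%, 4.35% and 1.41% of all genes. Members with ko and wt libraries that did not overlap were Rspo1 in iBAT (higher in ko), Wnt5b, Wnt9b, Fzd1 and Fzd6 in iWAT (higher in ko), and Wnt2 and Wnt9a (higher in ko) and Sfrp1 (lower in ko) in eWAT. This was 1, 4 and 3 of 31 members beside 4.94%, 4.92% and 5.25% of all genes.

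The 4 members with an unadjusted p under 0.05 across tissues were all Wnt ligands. That fit took the tissues of a mouse as independent libraries, so its SEs and p-values do not allow for the shared animal. With counts summed per mouse, 0 of 33 members tested passed the adjusted threshold, beside 0 of 20600 genes. In wt and ko, Wnt2 was at 0.0619, 0.324 and 0.0646 against 0.157, 0.225 and 0.258 CPM in iBAT, 0.844, 1.28 and 3.36 against 4.49, 8.64 and 0.991 CPM in iWAT, and 0.176, 0.146 and 0 against 0.30, 0.485 and 0.842 CPM in eWAT. The groups overlapped in iBAT and iWAT and not in eWAT. Its log2 fold change was 1.42 ± 0.52 across tissues and 2.25 ± 0.95 in eWAT (edgeR, adjusted p = 1 for each). Without the 4 libraries with other tissue these values of Wnt2 were 0.85 and 1.82. For Wnt9b the log2 fold change was 1.19 ± 0.45 across tissues (0.78 without these 4), at no more than 1.44 CPM in any library. The across-tissue values of Wnt10b and Wnt4 were 0.98 ± 0.44 and 1.29 ± 0.61, and without eWAT ko replicate 3 that of Wnt4 was 0.45. Without the 4 libraries those of Wnt10b and Wnt4 were 0.21 and 0.76.

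Wnt10b was at 2.60, 1.18 and 1.95 CPM in the wt and 10.8, 6.03 and 1.25 CPM in the ko libraries of iWAT. The groups overlapped through ko replicate 3. The log2 fold change was 1.66 ± 0.68 in iWAT (edgeR, adjusted p = 1), 0.93 without iWAT ko replicate 1 and -0.60 without the 4 libraries with other tissue, which leaves 1 iWAT ko library. Wnt4 was at 4.88, 1.60 and 1.58 CPM in wt and 1.12, 3.86 and 36.8 CPM in ko in eWAT, with a log2 fold change of 2.37 ± 1.004 (adjusted p = 1) that was -0.10 without ko replicate 3 and 3.11 without wt replicate 1. Wnt5b in iWAT was at 0.26, 0.449 and 1.35 CPM in wt and 1.89, 1.71 and 1.76 CPM in ko (1.37 ± 0.64, adjusted p = 1), and 2.32 without wt replicate 3. Sfrp1 in iWAT was at 4.19, 2.70 and 3.73 CPM in wt and 14.2, 6.20 and 2.24 CPM in ko (1.09 ± 0.49, adjusted p = 1), 0.25 without ko replicate 1 and -0.63 without the 4 libraries.

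**Figure D5:**
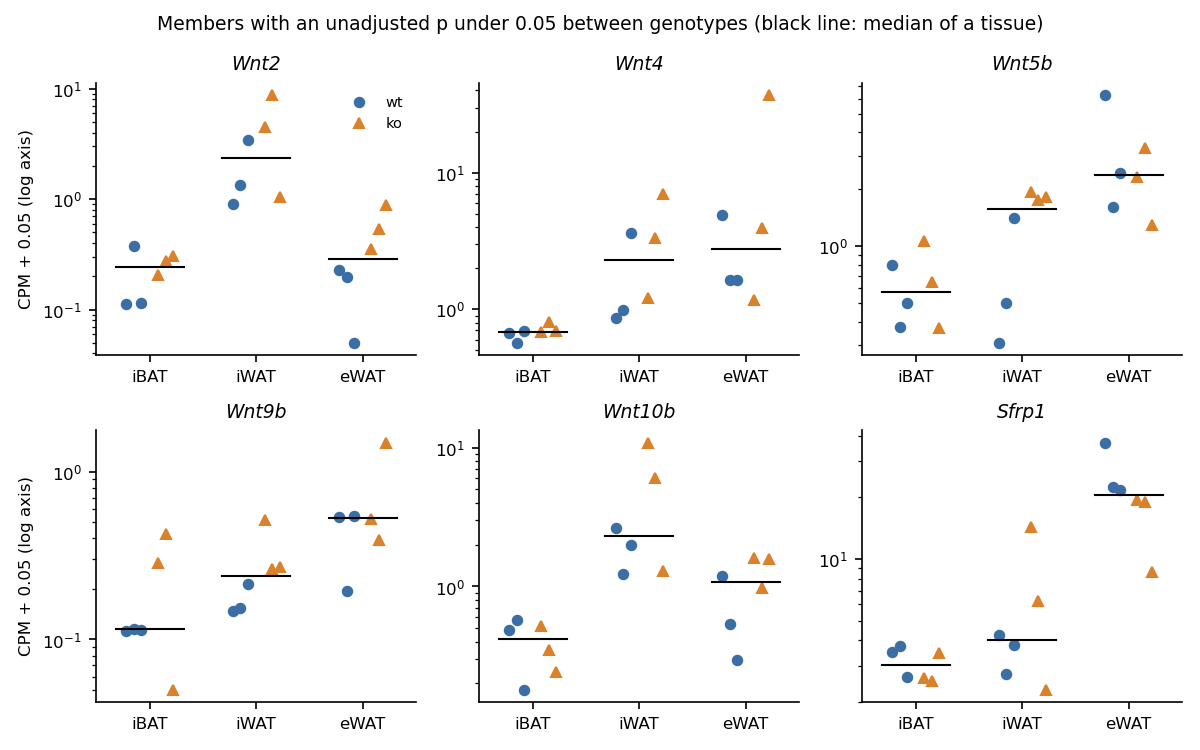
Levels of the 6 members with an unadjusted p under 0.05 between genotypes (panels) in each library, as CPM + 0.05 on a log axis, by tissue and genotype (circles wt, triangles ko), with a black line at the tissue median. The ko libraries exceed the wt libraries without overlap for Wnt2 in eWAT and for Wnt5b and Wnt9b in iWAT. They lie below the wt libraries without overlap for Sfrp1 in eWAT, and no member passed the adjusted threshold.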

How the data were processed

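Polyadenylated RNA of 18 tissue pieces (6 mice, 3 adipose tissues) was sequenced as paired-end libraries. The authors filtered the reads with cutadapt and quantified them with salmon, either on GENCODE M22 alone or on M22 joined with RNAcentral. The authors deposited the result as a table of estimated counts of genes, already whole and not normalised. The sources used here do not say which reference this table rests on, how strand was set or how transcripts were summed. For 7 members (Wnt5a, Wnt7b, Wnt11, Fzd5, Fzd6, Sfrp2 and Rspo3) an exon overlaps a gene on the opposite strand. If strand was not used, reads in the shared stretch cannot be told apart.

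Libraries were grouped by tissue and genotype from their titles. The edgeR 4.0.16 quasi-likelihood F-test (R 4.3.3) was fitted on the whole table after filterByExpr, which left 18728 genes, with TMM scaling. Tissue contrasts and the genotype effect across tissues came from a model of tissue and genotype, and genotype effects within tissues and the interaction from 1 mean per group. P-values were adjusted by Benjamini-Hochberg over all genes, with a threshold of 0.05. The SE was taken as the size of the log2 fold change over the root of its F value. Levels per kilobase use the union of exons of GENCODE M21 (GRCm38), in which all 41 identifiers were found with the same version. Where no library of 1 tissue exceeded 3 counts and a library of the other did, the ratio of pooled levels is given with an exact 95% interval.

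Libraries of the same mouse were paired by the mouse identifier in the labels. Deviations from the group means correlated between tissues of the same mouse at -0.17 to 0.33 over 18 pairs (median 0.057), and the mouse was a block in an alternative. Other alternatives were DESeq2 1.42.0, its size factors, other filters on low counts, wt libraries alone, each library left out, and all but the 4 libraries with other tissue. For the genotype effect across tissues, counts summed per mouse were a further alternative. The members and lists were chosen with earlier results of these data known. The rule for named genes covered all members, and of the other pathway genes 10 chosen by role and up to 3 per direction and contrast with the smallest p. The test was checked on simulated data.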

Additional observations from a re-analysis of the deposited data

Results flagged for a closer look

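A library whose gap to the nearest other library of its tissue was large for the range of the 6 libraries was found in 8 of 89 comparisons on log2(CPM + 0.1), where chance gives about 1 in 20, or 4.45. Of the 8, 7 were in eWAT ko replicate 3. The gap, as a share of the range, is given for each with a critical value of 0.625.

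In eWAT ko replicate 3, Fzd4 was lowest at 245 CPM against 454 CPM in the next library (share 0.786), Fzd7 lowest at 11.2 against 20.2 CPM (0.749), Wnt5a lowest at 16.3 against 23.4 CPM (0.630) and Rspo1 lowest at 4.75 against 12.8 CPM (0.629). In the same library Wnt10a was highest at 1.09 against 0.0879 CPM (0.745), Fzd3 highest at 12.4 against 5.53 CPM (0.742) and Fzd8 highest at 20.4 against 13.9 CPM (0.739). This library had the highest epididymis list (5093 CPM), testis list (115 CPM) and epidermis list (80.0 CPM) of the 18, and an adipocyte list of 10043 CPM, the lowest of the eWAT libraries. Their part in these levels was not tested.

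In iWAT, Wnt5a was lowest in wt replicate 3, at 9.17 CPM against 19.6 CPM in the next library (share 0.698). This library had the highest lymph node list (1331 CPM) and the lowest adipocyte list (7809 CPM) of the iWAT libraries, and their part was not tested.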

How the results depend on the processing

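Of the 55 calls of members in the tissue contrasts, 33 were kept under every alternative that could be fitted. Some calls that were kept whichever library was left out, and without the 4 libraries, were lost under 1 other alternative. These were Wnt5a in iBAT against eWAT, Fzd5 and Rspo3 in iBAT against iWAT, and Wnt2, Wnt2b and Rspo4 in iWAT against eWAT. With at least 10 counts in every library, 14 members were tested and 12, 12 and 4 passed in iBAT against iWAT, iBAT against eWAT and iWAT against eWAT (59.6%, 61.6% and 9.01% of all genes) and, of 41 other pathway genes tested, 25, 29 and 5. With wt libraries alone, 26 members were tested and 13, 18 and 2 passed in the same contrasts (37.8%, 37.7% and 1.42% of all genes) and, of 51 other pathway genes tested, 22, 23 and 3. These alternatives test fewer genes or fewer libraries. Leaving out each library in turn gave 17 to 21, 21 to 24 and 6 to 11 members (47.8% to 51.7%, 48.7% to 52.5% and 5.49% to 10.7% of all genes) and 29 to 34, 31 to 36 and 8 to 12 other pathway genes in the 3 contrasts, the lowest in iWAT against eWAT without iWAT ko replicate 2 or eWAT wt replicate 2, and 0 members in each genotype contrast. With the mouse as a replicate block 20, 23 and 11 members passed (55.6%, 55.7% and 9.25%). With the replicate number as a block between genotypes, for which the labels state no shared litter or day (9 pairs, correlation -0.47 to 0.55), 0 members passed. Without the 4 libraries with other tissue 18, 23 and 7 passed (45.3%, 57.1% and 10.2%), with the 1 iWAT ko library left assumed to vary like the other groups, and with DESeq2 23, 24 and 13 (57.3%, 57% and 14.9%). Ko against wt reversed without these 4 libraries for Wnt4 in eWAT (2.37 to -0.10, and -0.10 without eWAT ko replicate 3 alone), Wnt10b in iWAT (1.66 to -0.60) and Sfrp1 in iWAT (1.09 to -0.63), all at an adjusted p of 1. Leaving out eWAT wt replicate 1 gave 3.11 for Wnt4 in eWAT. The cause was not tested. With 3 mice per genotype, a difference that was not detected is not shown to be absent.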
